A study of Mus musculus with 8 samples.

Results

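The Ube2 genes encode most of the ubiquitin-conjugating enzymes, or E2s, of the mouse. They were taken from the deposited count table as every row whose gene name starts with Ube2, leaving out names marked as pseudogenes by -ps. The rule found 40 of 48709 genes, of which 33 had enough counts to be tested. Protein ubiquitination runs through a chain of enzymes: an E1 activates ubiquitin, an E2 carries it as a thioester, and an E3 ligase brings the E2 to the substrate. The E2 helps set which kind of ubiquitin chain is built, and a few E2s carry a related modifier (SUMO, NEDD8 or ISG15) in place of ubiquitin. In skeletal muscle, ubiquitination with degradation by the proteasome is a main route of protein breakdown, and glucocorticoid hormones are known to raise it.

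The libraries were made from poly(A) RNA of whole gastrocnemius, a hindlimb muscle, of C57BL/6 mice aged 16 weeks. The knockout group (4 libraries, lettered E to H) came from mice that carry a floxed gene for the glucocorticoid receptor, Nr3c1, together with HSA-Cre-ERT2, an inducible Cre recombinase under the human skeletal actin promoter, and the genotype is labelled GR(i)skm-/-. That promoter acts in myofibres, so the other cells of the muscle are expected to keep the receptor. The control group (4 libraries, A to D) came from mice with the floxed gene. No label gives the dose or time of an inducing drug, and it is not stated that the libraries of a group are different animals, so that the p-values below speak of the spread among libraries, which may be technical.

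Nr3c1 itself was reduced in only 2 of the 4 libraries labelled knockout. It was at 87.1, 38.6, 96.7 and 42.8 CPM (library-scaled counts, with TMM factors between libraries) in libraries E, F, G and H, against 83.2, 89.6, 84.7 and 90.04 CPM in control A to D. Library E lay within the control range and G above it, and the difference did not pass a two-sided exact permutation test (p = 0.371, with 0.0286 the smallest p that the 70 arrangements allow). Every direction below is drawn between libraries labelled knockout and control libraries, and the main values are also given without E and G. The myofibre marker Acta1 was at 27109 to 29675 CPM in the libraries labelled knockout and 33594 to 38380 CPM in control libraries, so all libraries hold much myofibre RNA. Library totals ran over 36680510 to 52200305 counts.

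Most Ube2 genes were well expressed in this muscle, and their levels differed widely. Of the 33 tested genes, 24 had a mean of at least 20 CPM over the 8 libraries, and the 4 highest, Ube2b, Ube2d3, Ube2r2 and Ube2d1, held 48.6% of all Ube2 counts on the CPM scale. Per kilobase of exon (union of GENCODE basic transcripts), which allows levels of different genes to be compared, Ube2b led at 222 CPM per kb, followed by Ube2d1 at 118, Ube2r2 at 49.0 and Ube2d3 at 47.8 CPM per kb. The order depends on the length used: over the exons of all annotated transcripts, Ube2r2 was at 42.1, Ube2d1 at 38.7 and Ube2d3 at 9.12 CPM per kb. The lowest tested genes were Ube2v1 at 0.276 and Ube2ql1 at 0.201 CPM per kb. The 7 genes not tested had at most 5 counts over all libraries. They were Ube2u with 5 counts, Ube2nl and Ube2d4 with 1 count each, and Ube2dnl1, Ube2dnl2, Ube2d2b and Ube2uos with 0 counts. Ube2nl and Ube2d4 are annotated as processed pseudogenes and Ube2uos as an antisense transcript.

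**Figure D1:**
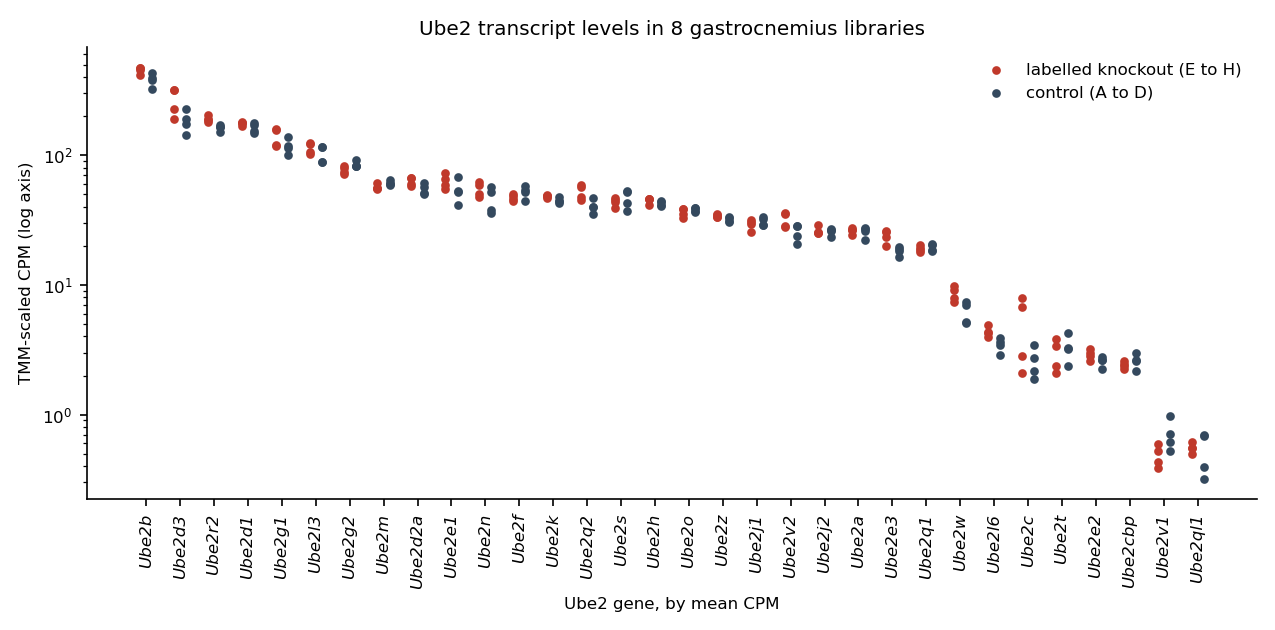
TMM-scaled CPM (log axis) of 32 tested Ube2 genes, ordered by their mean, with 1 point per library (red, labelled knockout; dark, control). Levels span Ube2b, at 415 to 474 CPM in libraries labelled knockout and 326 to 429 CPM in control libraries, to genes below 1 CPM, and the groups overlap for all but 3 genes.

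Few of the genes passed the test between the groups. By edgeR's quasi-likelihood test with Benjamini-Hochberg adjustment over all 14712 genes tested, 2 of 33 Ube2 genes rose, Ube2e3 and Ube2r2, and 0 fell. That is 6.06% of the tested Ube2 genes, against 8.45% of all genes tested (4.04% higher and 4.41% lower). At an unadjusted p under 0.05 the test took 9 Ube2 genes, all higher, or 27.3%, against 13% of all genes higher and 14% lower (27.1% in both directions). The libraries of both groups did not overlap for 3 Ube2 genes (9.09%), against 16.7% of all genes, and all 3 were higher in the libraries labelled knockout (7.68% of all genes were higher without overlap and 9.02% lower). The share called higher, 6.06% against 4.04%, rests on 2 genes. By DESeq2 6 Ube2 genes (18.2%) were called higher, against 7.39% of all genes, and by limma-voom 4 (12.1%), against 6.14%; both called 0 lower.

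By fold change alone, 22 Ube2 genes were higher (66.7%, against 48.3% of all genes tested) and 11 lower, with a median log2 fold change of 0.10, against -0.01 over all genes tested. The log2 fold changes lay between -0.54 (Ube2v1) and 0.95 (Ube2c), and 24 of the 33 were under 0.25 in size. Summed over the tested and untested members, Ube2 transcripts were at 2011, 2037, 2300 and 2308 CPM in knockout-labelled E to H, against 1724, 1961, 1875 and 2029 CPM in control A to D. The sums overlapped, since library E lay below control library D. The highest value of a tested gene fell in library H for 10 genes and in G for 8, and the lowest in library A for 11.

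**Figure D2:**
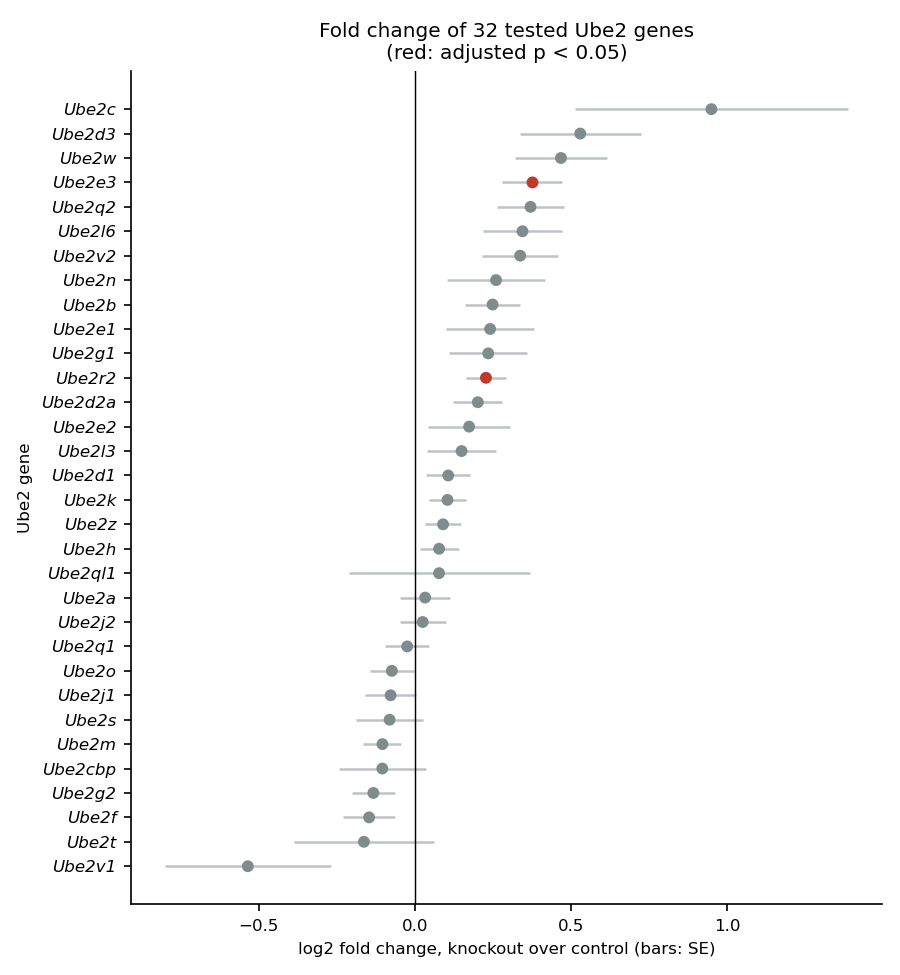
Log2 fold change (libraries labelled knockout over control, x axis) of 32 tested Ube2 genes with their SE, from edgeR; red points passed an adjusted p of 0.05. Ube2e3 at 0.38 and Ube2r2 at 0.23 are the 2 red points, while Ube2c at 0.95 and Ube2v1 at -0.54, the ends of the range, have wide errors.

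Ube2e3 belongs to a small class of E2s with an extended N-terminus. It lies at chr2:78868124-78921293 on the plus strand of mm10 (ENSMUSG00000027011). It was at 19.8, 23.5, 26.0 and 25.8 CPM in knockout-labelled E to H, against 16.4, 19.7, 18.2 and 18.9 CPM in control A to D. All 4 libraries labelled knockout were above the highest control library, with E above B by less than 0.1 CPM. The means were 23.8 ± 2.85 CPM in libraries labelled knockout and 18.3 ± 1.44 CPM in control libraries (SD, n = 4 each), giving a log2 fold change of 0.38 ± 0.096 (SE; adjusted p = 0.0372). Without libraries E and G the log2 fold change was 0.43 with an adjusted p of 0.0704. The call was also lost when library A, C, D, F, G or H was left out (adjusted p = 0.0956, 0.0891, 0.0607, 0.0807, 0.119 and 0.0942) and was kept without B or E (0.0321 and 0.016).

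The other members of that class were not called. Ube2e1, the most abundant of them, was at 55.1, 59.4, 65.0 and 72.7 CPM in knockout-labelled E to H, against 41.1, 67.7, 51.8 and 52.8 CPM in control A to D. The ranges overlapped through control library B, and the log2 fold change was 0.24 ± 0.14 (SE; adjusted p = 0.297). Ube2e1 shares 718 exon bases with Nkiras1 on the opposite strand, which had 13726 counts in all, against 20360 for Ube2e1. The part of Nkiras1 in the Ube2e1 counts was not tested. Ube2e2, at 2.57 to 3.19 CPM in libraries labelled knockout and 2.26 to 2.78 CPM in control libraries, had a log2 fold change of 0.17 (adjusted p = 0.418).

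Ube2r2, a close relative of Cdc34, builds chains that send substrates of cullin ligases to the proteasome. It lies at chr4:41135743-41193380 on the plus strand (ENSMUSG00000036241). It was at 203, 181, 187 and 190 CPM in knockout-labelled E to H, against 170, 164, 165 and 152 CPM in control A to D. The groups did not overlap, and library E, in which Nr3c1 was at the control level, was the highest. The means were 190.3 ± 9.23 CPM in libraries labelled knockout and 162.6 ± 7.43 CPM in control libraries (SD, n = 4 each), giving a log2 fold change of 0.23 ± 0.063 (SE; adjusted p = 0.0499), so this gene lay at the threshold. Without libraries E and G it was 0.19 with an adjusted p of 0.255. The call was kept without library B (0.0457) and lost without A, C, D, E, F, G or H (0.0722, 0.0938, 0.101, 0.106, 0.0796, 0.118 and 0.103).

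The other E2s that build such chains were not called. Ube2g1 was at 118.2 to 159.5 CPM in libraries labelled knockout and 100.7 to 138.7 CPM in control libraries (log2 fold change 0.23, adjusted p = 0.253). Ube2k, which extends chains and is also known as the huntingtin-interacting E2, was at 46.5 to 49.2 CPM in libraries labelled knockout and 42.7 to 47.9 CPM in control libraries (log2 fold change 0.10, adjusted p = 0.278).

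Ube2b and Ube2a are the mammalian forms of yeast RAD6, which modifies histone H2B, acts in DNA damage tolerance and serves the ligases of the N-degron pathway. Ube2b (ENSMUSG00000020390, chr11:51985497-52000762, minus strand) was the most abundant E2 and was at 415, 453, 474 and 472 CPM in knockout-labelled E to H, against 326, 395, 377 and 429 CPM in control A to D. Libraries F, G and H were above all control libraries and E was below D. The log2 fold change was 0.25 ± 0.088 (SE) and did not pass (adjusted p = 0.0994). Ube2a, at 24.4 to 27.6 CPM in libraries labelled knockout and 22.03 to 27.3 CPM in control libraries, had a log2 fold change of 0.03 (adjusted p = 0.825). The 250 bases before the RefSeq start of Ube2b (GRCm38.p6, chr11:52000787-52001036, minus strand) are shown because this is the most abundant Ube2 transcript, with each CACGTG, the E-box that several helix-loop-helix factors bind, in capitals.
Ube2b: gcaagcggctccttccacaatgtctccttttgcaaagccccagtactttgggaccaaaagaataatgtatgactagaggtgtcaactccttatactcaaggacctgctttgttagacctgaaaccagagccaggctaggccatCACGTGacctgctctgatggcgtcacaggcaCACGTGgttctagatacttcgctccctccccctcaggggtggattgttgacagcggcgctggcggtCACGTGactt

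This window holds 3 copies of CACGTG, a motif that reads the same on both strands and occurs in 6.02% of 32851 RefSeq windows of that length. Among the 31 Ube2 genes with a RefSeq window, Ube2b and Ube2q1 have it. The full palindrome that the glucocorticoid receptor binds, AGAACA and TGTTCT with any 3 bases between them, occurs in 3 of all windows (0.00913%) and in 0 of the Ube2 windows. Its separate arms, AGAACA or TGTTCT, occur in 16.1% of windows, and among the Ube2 genes in Ube2h, Ube2m and Ube2s. These matches describe letters near the start sites only.

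The Ube2d genes encode broad-range E2s that serve many RING and HECT ligases. Ube2d3 was at 189, 228, 319 and 320 CPM in knockout-labelled E to H, against 144, 190, 173 and 225 CPM in control A to D. Libraries G and H stood well above the other 6, while E lay within the control range. The log2 fold change was 0.53 ± 0.19 (SE; adjusted p = 0.123), and without library E alone it was 0.66 and passed (adjusted p = 0.0447). That was 1 of the 8 fits that left out 1 library, and the highest adjusted p among them was 0.269. Without libraries E and G together the log2 fold change was 0.58 (adjusted p = 0.146). Ube2d1 was at 167.5 to 181.2 CPM in libraries labelled knockout and 149 to 177.6 CPM in control libraries (log2 fold change 0.11, adjusted p = 0.357). Ube2d2a was at 58.2 to 66.5 CPM in libraries labelled knockout and 50.5 to 60.5 CPM in control libraries (log2 fold change 0.20, adjusted p = 0.130).

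Ube2n forms signalling chains together with Ube2v1 or Ube2v2, E2-like partners that lack the catalytic cysteine. Ube2n was at 47.96, 49.8, 59.0 and 62.0 CPM in knockout-labelled E to H, against 35.8, 57.1, 37.6 and 52.1 CPM in control A to D. Control libraries B and D lay within the range of the libraries labelled knockout, and the log2 fold change was 0.26 ± 0.16 (SE; adjusted p = 0.321). Ube2v2 was at 27.9 to 36.03 CPM in libraries labelled knockout and 20.7 to 28.4 CPM in control libraries (log2 fold change 0.34, adjusted p = 0.108). Ube2v1 was counted at 0.389 to 0.592 CPM in libraries labelled knockout and 0.528 to 0.982 CPM in control libraries (log2 fold change -0.54, adjusted p = 0.219). Its level is uncertain, because 57.97% of its 50-base words also occur in other genes, nearly all of them in Gm20431, which shares 1673 exon bases with it on the same strand and was listed at 0 counts.

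None of the 3 E2s of degradation at the endoplasmic reticulum was called by any alternative run. Ube2g2, the partner of the ligase gp78, was at 83.2, 71.7, 80.3 and 74.5 CPM in knockout-labelled E to H, against 82.2, 83.0, 82.4 and 91.9 CPM in control A to D. Libraries F, G and H were below all control libraries and E was within their range (log2 fold change -0.13 ± 0.069 SE, adjusted p = 0.237). The membrane-anchored Ube2j1 and Ube2j2 had log2 fold changes of -0.08 and 0.02 (adjusted p = 0.571 and 0.858).

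Ube2l3, which passes ubiquitin to HECT and RING-between-RING ligases such as parkin, was at 105.8, 101.5, 122.9 and 124.9 CPM in knockout-labelled E to H, against 89.0, 116.2, 89.0 and 116.1 CPM in control A to D. Control libraries B and D exceeded E and F (log2 fold change 0.15 ± 0.11 SE, adjusted p = 0.416). It shares 1670 exon bases with Ydjc on the opposite strand, which had 44 counts in all. Ube2h, the E2 of the CTLH ligase, was at 45.9, 40.9, 46.0 and 46.0 CPM in knockout-labelled E to H, against 43.2, 41.4, 40.8 and 44.1 CPM in control A to D. Only library F lay within the control range, with a log2 fold change of 0.08 ± 0.063 (SE; adjusted p = 0.455).

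**Figure D3:**
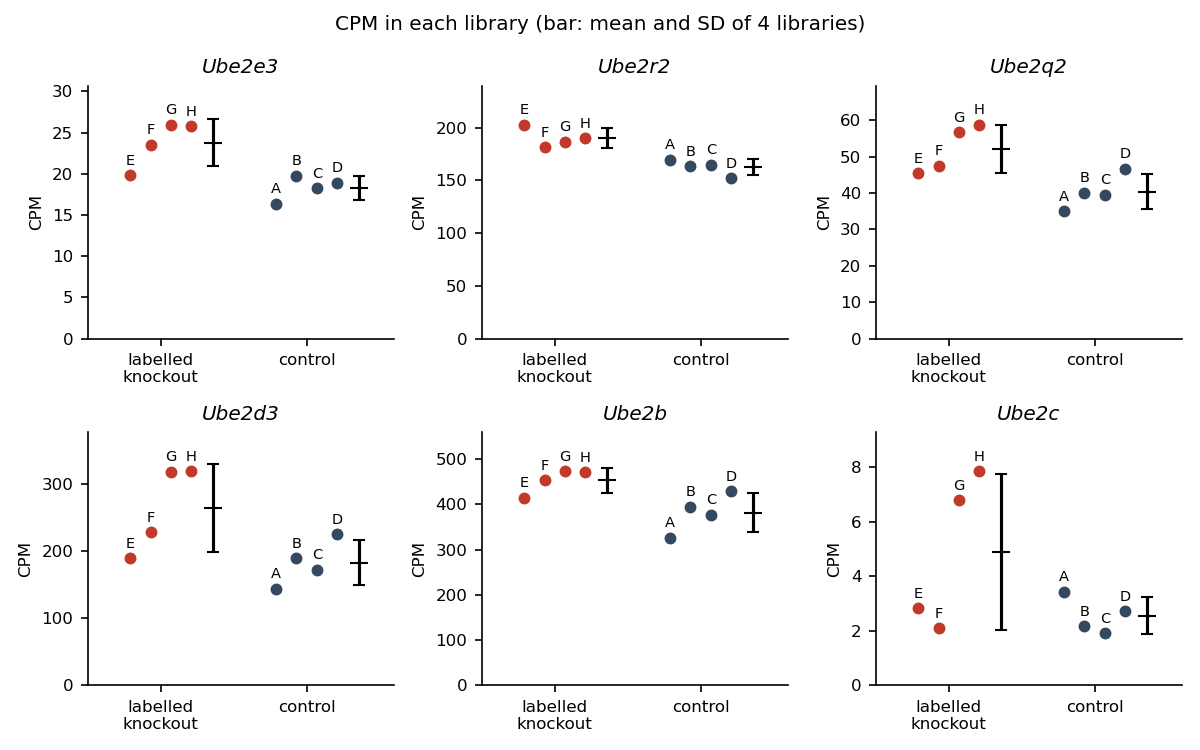
CPM (y axis, linear, starting at 0) in each lettered library for 6 Ube2 genes, with the mean and SD of each group beside the points. The groups separate for Ube2e3 and Ube2r2; for Ube2q2, Ube2d3 and Ube2b library E lies below control library D; and for Ube2c libraries G and H, at 6.79 and 7.86 CPM, stand apart from the other 6.

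Ube2c and Ube2s act with the anaphase-promoting complex: Ube2c starts ubiquitin chains on its substrates and Ube2s extends them. Ube2c (ENSMUSG00000001403, chr2:164769898-164778822, plus strand) had the largest fold change of the 33 genes and an uneven one. It was at 2.83, 2.09, 6.79 and 7.86 CPM in knockout-labelled E to H, against 3.42, 2.16, 1.89 and 2.71 CPM in control A to D. Libraries G and H were above every control library, and E and F were within the control range. The log2 fold change was 0.95 ± 0.44 (SE; adjusted p = 0.205), and it was 0.97 (adjusted p = 0.334) without E and G. The groups' coefficients of variation were 58.4% in the libraries labelled knockout and 26.6% in control libraries. Proliferation markers were few in this tissue: 3 of 6 were tested. Of these, 0 were called by edgeR, DESeq2 or limma-voom, and 0 had an unadjusted p under 0.05. The summed level of the 6 was 1.59 to 4.34 CPM in libraries labelled knockout and 1.95 to 3.62 CPM in control libraries. Library H, the highest for Ube2c, held the 4.34 CPM. The marker Mki67 was at 0.714 CPM in library G and 1.69 CPM in H, against 0.684 to 1.56 CPM in control libraries. The relation of these markers to Ube2c was not tested. Ube2c also shares 592 exon bases with Tnnc2, the abundant fast troponin C gene on the opposite strand, and the counting by strand is not given in the sources used here. Tnnc2 was at 11516, 11230, 9009 and 9442 CPM in knockout-labelled E to H, against 13061, 10555, 14194 and 10144 CPM in control A to D, so libraries G and H, high for Ube2c, had the lowest Tnnc2. Its part in the Ube2c counts was not tested.

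The bases from 250 to 21 before the RefSeq start of Ube2c (GRCm38.p6, chr2:164769679-164769908, plus strand) are shown because this gene had the largest fold change. CCAAT boxes, bound by the factor NF-Y, are in capitals on either strand (CCAAT or ATTGG), as is TTCAAA, the reverse complement of TTTGAA, the cell cycle genes homology region found near the start of many genes expressed in mitosis.
Ube2c: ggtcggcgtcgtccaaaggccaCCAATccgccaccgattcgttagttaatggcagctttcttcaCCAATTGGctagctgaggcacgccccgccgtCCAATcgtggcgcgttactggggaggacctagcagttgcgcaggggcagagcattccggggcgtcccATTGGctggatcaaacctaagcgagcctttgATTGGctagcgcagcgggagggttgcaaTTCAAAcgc

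The stretch holds CCAAT 3 times and ATTGG 3 times, one pair of them overlapping, and TTCAAA once. CCAAT or ATTGG occurs in 33.8% of all RefSeq windows of 250 bases and in 10 of the 31 Ube2 windows. TTTGAA or TTCAAA occurs in 16.0% of all windows and in 5 Ube2 windows.

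Ube2s was at 46.8, 44.7, 43.5 and 39.3 CPM in knockout-labelled E to H, against 51.8, 37.3, 52.7 and 42.7 CPM in control A to D. Libraries G and H, high for Ube2c, were the lowest of their group for Ube2s (log2 fold change -0.08 ± 0.11 SE, adjusted p = 0.664). Ube2s shares 183 exon bases with Rpl28 on the opposite strand, which had 21410 counts in all, against 15281 for Ube2s. The part of Rpl28 in the Ube2s counts was not tested. Ube2t, the E2 of the Fanconi DNA repair pathway, was at 3.37, 2.09, 2.38 and 3.85 CPM in knockout-labelled E to H, against 2.39, 4.27, 3.18 and 3.26 CPM in control A to D. The ranges overlapped (log2 fold change -0.16 ± 0.22 SE, adjusted p = 0.673).

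Of Ube2l6, Ube2m and Ube2f, E2s of ubiquitin-like modifiers, 0 were called by edgeR, DESeq2 or limma-voom, and 1 (Ube2l6) had an unadjusted p under 0.05. Ube2l6, which conjugates the interferon-induced modifier ISG15, was at 4.25, 4.33, 3.98 and 4.92 CPM in knockout-labelled E to H, against 3.42, 3.60, 2.87 and 3.87 CPM in control A to D. The groups did not overlap, with library G above control library D by about 0.1 CPM, but the log2 fold change of 0.34 ± 0.13 (SE) did not pass (adjusted p = 0.111). Of the 8 interferon response genes listed 0 were called by edgeR. DESeq2 took 1 as higher, and limma-voom took 1 as higher and 1 as lower. By edgeR 3 had an unadjusted p under 0.05. These were Usp18, which was higher (log2 fold change 0.63), and Irf7 and Bst2, which were lower (-0.52 and -0.30). The summed level of the 8 genes was 29.9 to 42.4 CPM in libraries labelled knockout and 32.8 to 39.5 CPM in control libraries.

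Ube2m and Ube2f both carry NEDD8, which activates cullin ligases. Ube2m was at 60.9, 55.7, 55.4 and 54.7 CPM in knockout-labelled E to H, against 61.4, 58.8, 64.1 and 59.6 CPM in control A to D. Libraries F, G and H were below all control libraries and E was within them (log2 fold change -0.10 ± 0.061 SE, adjusted p = 0.291). Ube2f was at 44.0 to 50.2 CPM in libraries labelled knockout and 44.5 to 57.8 CPM in control libraries (log2 fold change -0.15, adjusted p = 0.278). Their modifier did pass: Nedd8 fell to 38.0, 36.1, 35.2 and 34.7 CPM in knockout-labelled E to H, against 41.5, 40.7, 43.7 and 41.8 CPM in control A to D (log2 fold change -0.22 ± 0.058 SE, adjusted p = 0.0413). Every library labelled knockout was below every control library. Nedd8 no longer passed once the GC trend was taken out (log2 fold change -0.11, adjusted p = 0.256) and without libraries E and G (-0.24, adjusted p = 0.143).

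The remaining E2s include Ube2q2, of a branch with few known substrates. It was at 45.4, 47.6, 56.7 and 58.9 CPM in knockout-labelled E to H, against 35.0, 40.1, 39.5 and 46.7 CPM in control A to D. Libraries F, G and H were above all control libraries and E was below D. The log2 fold change of 0.37 ± 0.11 (SE) just missed the threshold (adjusted p = 0.0556), and it passed without library D or E (0.0383 and 0.0389). The sequence of Ube2q2 is partly shared, since 16.38% of its 50-base words also occur in Gm4895. Ube2w, which attaches ubiquitin to the N-terminus of proteins, was at 7.34, 7.97, 9.79 and 9.12 CPM in knockout-labelled E to H, against 5.08, 7.02, 5.15 and 7.44 CPM in control A to D. Library E was just below control library D, and the log2 fold change was 0.47 ± 0.15 (SE; adjusted p = 0.0722).

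Ube2o, a large enzyme that works as E2 and E3 at once, was at 32.8 to 38.3 CPM in libraries labelled knockout and 36.2 to 39.5 CPM in control libraries (log2 fold change -0.07, adjusted p = 0.521). Ube2z, which is charged by the second ubiquitin E1, Uba6, was at 33.3 to 34.9 CPM in libraries labelled knockout and 30.6 to 33.5 CPM in control libraries (log2 fold change 0.09, adjusted p = 0.348). Ube2q1, Ube2ql1 and Ube2cbp, a ligase named for binding Ube2c, had log2 fold changes of -0.03, 0.08 and -0.10 (adjusted p = 0.845, 0.889 and 0.664).

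Fold change went with the base composition of the transcripts. Across the 33 Ube2 genes, the Spearman correlation of log2 fold change with GC content of the longest transcript was -0.46, and across the 14687 tested genes with a GC value it was -0.45; these points share the same 8 libraries. With bounds chosen after the values were seen, all 11 Ube2 genes under 43% GC were higher by fold, with a median log2 fold change of 0.24. Of the 13 with at least 50% GC, 6 were higher and 7 lower, with a median of -0.01. Just above the lower bound, Ube2d1 (43.6% GC) had a log2 fold change of 0.11 and Ube2t (43.7% GC) of -0.16. The shares of all genes that were higher within these bounds were not computed. These counts therefore cannot set the Ube2 genes apart from the trend across all genes. When each library's trend on GC content was removed, the correlation was 0.21 across Ube2 genes and -0.02 across all genes. The median log2 fold change was then 0.04 for the Ube2 genes under 43% GC and 0.07 for those with at least 50% GC.

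In that fit 1 Ube2 gene (3.03%) was called higher, against 2.19% of all genes called higher and 4.64% in either direction. It was Ube2r2, at 50.5% GC, with a log2 fold change of 0.27 (adjusted p = 0.0274). Ube2e3, at 45.3% GC, had 0.30 (adjusted p = 0.0666). Among the GC-poor genes, Ube2b then had a log2 fold change of 0.09 (adjusted p = 0.487), Ube2d3 0.25 (0.281) and Ube2w 0.25 (0.237). Without libraries E and G, with GC left as it was, 0 Ube2 genes were called by edgeR, against 1.49% of all genes called. Of the 33 Ube2 genes, 9 had an unadjusted p under 0.05 in that run, and 21 were higher and 12 lower by fold. For these last counts the shares of all genes without E and G were not computed, so no excess can be read from them.

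**Figure D4:**
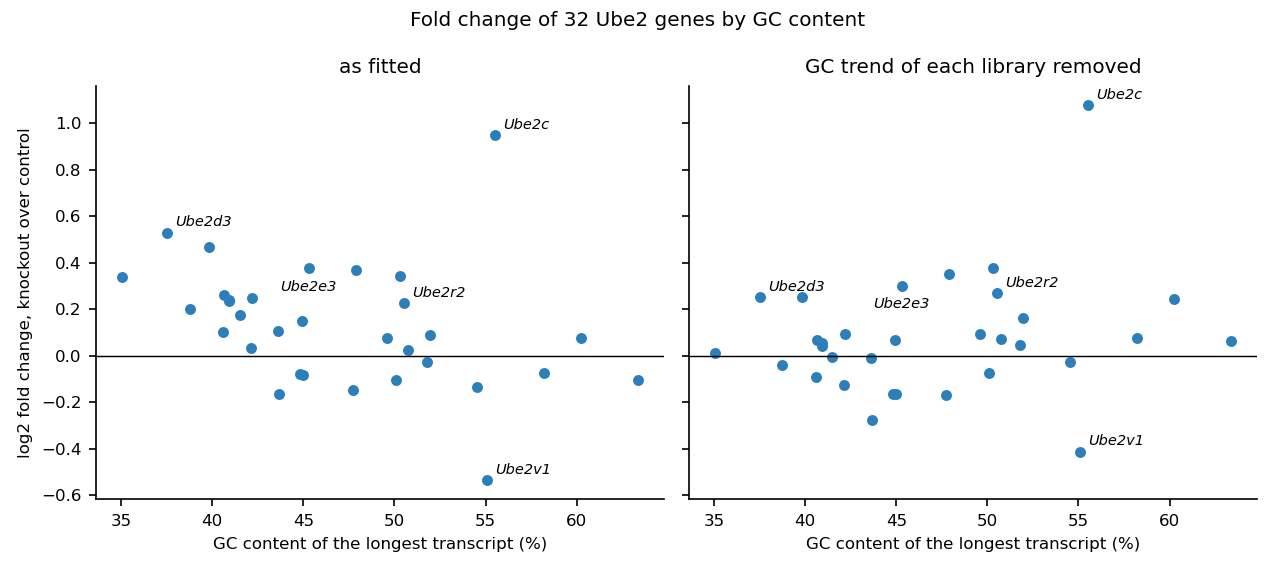
Log2 fold change (libraries labelled knockout over control, y axis) of 32 tested Ube2 genes by GC content of the longest transcript (percent, x axis), as fitted (left) and after each library's trend on GC content was removed (right). On the left GC-poor genes lie above 0. On the right Ube2c, Ube2e3 and Ube2r2 stay above 0, as do other genes, among them Ube2l6 at 0.38 and Ube2q2 at 0.35.

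Other steps of the pathway were read from lists of its genes. Of 9 E1 genes 0 were called by edgeR. Uba6, which had the smallest p, was the 1 gene at an unadjusted p under 0.05 (log2 fold change 0.46, adjusted p = 0.0648), and DESeq2 and limma-voom called 1 each. Of 7 tested genes of E2s and E2-like proteins without the Ube2 name 0 were called by edgeR or limma-voom and 1 by DESeq2. Aktip, which is E2-like and lacks the catalytic cysteine, was the 1 gene at an unadjusted p under 0.05 (log2 fold change 0.23, adjusted p = 0.0506). Of 12 genes of ubiquitin and its relatives only Nedd8 was called by edgeR. DESeq2 called 1 of the 12 higher and 1 lower, limma-voom called 1 lower, and 4 had an unadjusted p under 0.05. Of 46 listed genes of E3 ligases that work with a given E2, 3 names were not matched. Of the 43 tested 5 rose and 1 fell, which is 14.0% against 8.45% of all genes, with a median log2 fold change of 0.06. DESeq2 called 10 of the 43 higher and 1 lower, against 13.8% of all genes in either direction. Limma-voom called 6 higher and 1 lower, against 12.7%. An unadjusted p under 0.05 was reached by 16 of the 43, against 27.1% of all genes.

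The called ligases span several E2 partners. Ubr1 of the N-degron pathway, which uses Ube2a and Ube2b, was at 51.4, 59.2, 61.0 and 61.0 CPM in knockout-labelled E to H, against 42.6, 48.4, 47.4 and 42.6 CPM in control A to D (log2 fold change 0.36, adjusted p = 0.018). Rmnd5a, the subunit of the CTLH ligase that works with Ube2h, was at 252, 283, 309 and 277 CPM in knockout-labelled E to H, against 196, 193, 210 and 234 CPM in control A to D (0.43, adjusted p = 0.0141). Every library labelled knockout was above every control library for both genes.

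Cul5, the scaffold of cullin ligases that Ube2f neddylates, and Pias2, a SUMO ligase, had log2 fold changes of 0.36 (adjusted p = 0.0333) and 0.41 (adjusted p = 0.0103). Rbck1, a subunit of the linear ubiquitin ligase that takes ubiquitin from Ube2l3, fell to 25.7 to 28.9 CPM in libraries labelled knockout, against 29.1 to 35.7 CPM in control libraries (log2 fold change -0.28, adjusted p = 0.0464). Of the called ligases named here, Pias2 and Rmnd5a passed with the GC trend removed and Pias2 alone passed without libraries E and G. With the GC trend removed, Cul5 had a log2 fold change of 0.12 (adjusted p = 0.216) and Rbck1 of -0.12 (adjusted p = 0.243). Of the E2s Ube2a, Ube2b, Ube2h, Ube2f and Ube2l3, which these ligases use, 0 were called by edgeR or limma-voom, 1 (Ube2b) was called by DESeq2, and 1 had an unadjusted p under 0.05.

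Cell type markers also differed between the groups. All 5 Schwann cell markers and all 4 smooth muscle markers were lower, with summed levels of 56.9 to 77.7 and 77.3 to 109 CPM in libraries labelled knockout, against 154 to 285 and 151 to 183 CPM in control libraries. Of 8 myofibre markers, 2 were called lower (Acta1 and Mylpf), and of 6 endothelial markers 1 was called lower. Of 6 macrophage markers 1 was called higher, and of 5 fibroblast markers 1 higher and 1 lower. Of all genes tested, 8.45% were called. An unadjusted p under 0.05 was found for 4 myofibre, 5 endothelial, 2 macrophage and 4 fibroblast markers, against 27.1% of all genes. By fold change alone, 2 endothelial markers were higher and 4 lower, and all 6 macrophage markers were higher. Of the myofibre markers 1 was higher and 7 lower, and of the fibroblast markers 3 were higher and 2 lower. All 4 adipocyte and all 5 tested erythroid markers were higher, with median log2 fold changes of 0.73 and 0.32. Of the satellite cell markers 1 was higher and 2 lower. Of all genes tested, 48.3% were higher by fold. Of the 12 tested adipocyte, satellite cell and erythroid markers 0 were called by edgeR or limma-voom, while 1, the satellite cell gene Cdh15, had an unadjusted p under 0.05 and 1 was called by DESeq2. In whole muscle, fewer cells of a type and less RNA per cell cannot be told apart, and the part of these cells in the Ube2 values was not tested.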

How the data were processed

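The deposited values are whole read counts for each Ensembl gene in 8 libraries, which the authors had not normalised. Per the labels' protocols, the stranded poly(A) libraries started with 700 ng of total RNA. Per the submitters' processing notes and design text, base calls were converted with bcl2fastq 2.17.1.14, and reads were aligned to mm10 with TopHat version 2 and counted with HOMER. Which annotation release and strand setting the counting used is not given in the sources used here. Column numbers occur in no label, so columns were put in groups by name and lettered in column order.

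Genes were kept by edgeR's filterByExpr (14712 genes), scaled by TMM and compared with the robust quasi-likelihood test of edgeR 4.0.16 under R 4.3.3 (with limma 3.58.1), without covariates, and Benjamini-Hochberg adjustment over all genes tested at a threshold of 0.05. SEs were taken as the size of the log2 fold change over the root of F. On simulated data for this comparison (14526 genes), the test recovered 95.7% of genes lowered by a set log2 change of -2 and 81.6% of those at -1, and 78% of genes raised by 1 and 96% of those raised by 2, with 13 false calls. Changes smaller than 1 were not simulated, and 0 Ube2 genes reached that size. These rates therefore do not cover the fold changes seen for Ube2 genes. Coordinates, lengths, GC content and shared 50-base words came from GENCODE release M21 (GRCm38, the mm10 assembly); promoter sequences came from RefSeq.

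The members, role groups, pathway lists and marker lists were chosen with earlier results of these data known. The naming rule asked for library values of called members, of the most abundant member of each role group and of members whose groups did not overlap. Ube2c, Ube2w and Tnnc2 were given by library after their values were seen. A member and a ligase are counted but not reported here. Alternatives were DESeq2 size factors, library size alone, no filter, a stricter filter, DESeq2 1.42.0, limma-voom, removal of the GC trend (lowess, span 0.3), leaving out E and G together, and each library left out in turn.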

Additional observations from a re-analysis of the deposited data

Results flagged for a closer look

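Of 68 groups of 4 libraries examined (33 tested Ube2 genes and Nr3c1 in both groups), 4 held a library far from the other 3 by Dixon's test at its 95% critical value, where chance flags about 1 in 20. They were Ube2m at 60.9 CPM in library E (highest), Ube2h at 40.9 CPM in library F (lowest) and Ube2j2 at 28.8 CPM in library G (highest), all labelled knockout, and Ube2g2 at 91.9 CPM in control library D (highest). No member among these was called.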

How the results depend on the processing

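No Ube2 gene was called lower under any alternative run. The count called higher was 2 and was also 2 with DESeq2 size factors and with the stricter filter, and 3 with library size alone (9.09%, against 6.36% of all genes) and with no filter (8.33% of 36 members, against 2.5%). It was 6 with DESeq2 (Ube2b, Ube2d3, Ube2e3, Ube2q2, Ube2r2 and Ube2w, against 7.39% of all genes called higher), 4 with limma-voom, 1 with the GC trend removed and 0 without libraries E and G. Leaving out each library in turn gave 0 to 3 (up to 9.09%, against 0.987% to 5.76% of all genes). With no filter, Ube2r2 missed the threshold (adjusted p = 0.0544). For Nr3c1, the log2 ratio of the group means of CPM (knockout-labelled over control) was -0.63 to -0.20 when each library was left out in turn.

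Genes not called by edgeR changed sign under some alternatives, among them Ube2d2a and Ube2e2, at 0.20 and 0.17 as reported. With library size alone, log2 fold changes became 0.000988 for Ube2o and 0.0508 for Ube2q1. With the GC trend removed they became -0.0113 for Ube2d1, 0.0644 for Ube2m, -0.0384 for Ube2d2a, -0.0928 for Ube2k, 0.0760 for Ube2o, -0.124 for Ube2a, 0.0453 for Ube2q1 and -0.00553 for Ube2e2. Without E and G they became 0.00962 for Ube2o, -0.0237 for Ube2j2 and -0.00997 for Ube2a. Over the fits that left out 1 library, Ube2a ran over -0.0299 to 0.0676, Ube2q1 over -0.0561 to 0.00681, Ube2j2 over -0.0242 to 0.0540 and Ube2ql1 over -0.10 to 0.24. The cause was not tested. No paired analysis was possible because the replicate numbers of the labels cannot be matched to the columns. Counting precision limits Ube2v1 and Ube2ql1, with 202 and 186 counts over all libraries.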
